A study of Rattus norvegicus with 3 samples.

Results

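FRSK cells, a keratinocyte line from the skin of fetal rats, were compared after Met-enkephalin (Met-ENK) and without stimulation. Met-ENK is a short opioid peptide that is cut from the precursor proenkephalin. It was given at 100 nM for 24 h to cells that had attached to the dish, and the unstimulated control culture is labelled only as control. Another culture received β-END(1-9), a fragment of β-endorphin, at the same dose and for the same time. Both groups grew in DMEM with serum and differ, as far as the labels say, only in the peptide. Each group is 1 whole-transcript array of total RNA, so every difference below is one between 2 arrays, has no replicate check and carries no test. The sources used here do not give whether control cells received vehicle or were harvested together with the others.

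The genes described are those whose mean signal over the 3 arrays reached the median of all named genes, a log2 signal of 6.41. This kept 7519 of 15037 named genes. Of them, 6159 were above a log2 signal of 7.6 on both the Met-ENK and the control array, 220 were above it on 1 of these 2 arrays and 1140 on neither. The limit of 7.6 lies just above the brightest of the 23 background probe sets (7.57 on the control array), so a gene beneath it is called at background level. Just inside the filter were Fli1, with 6.01 on the control array and 6.89 on the Met-ENK array, and Cdca5, with 6.41 on both. Just outside were Cnih2 (6.39 and 6.45) and Slx4ip (6.45 and 6.45).

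Enkephalins act on G protein-coupled opioid receptors of the δ and µ types, which couple to inhibitory G proteins and lower cAMP, and on the opioid growth factor receptor, a nuclear protein through which Met-ENK slows cell division. Peptidases at the cell surface and in the cytosol degrade the peptide. In skin, keratinocytes express proenkephalin, and opioid peptides have been studied there for effects on proliferation, differentiation and wound closure. Genes for ribosomal proteins and respiratory chain subunits are expressed in every cell. Their products are built into large complexes of fixed composition, and the members of each complex are usually expressed together.

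Of the 7519 genes, 453 (6.02%) were lower with Met-ENK than in control cells by at least 1.5-fold, and 52 (0.692%) were higher by as much. Above background on both arrays, 340 genes were lower by this much (5.52%) and 20 higher (0.325%). At 2-fold, 56 genes were lower (0.745%) and 5 higher (0.0665%). By any amount, 3436 genes were lower (45.7%), 2457 higher (32.7%) and 1626 had exactly the same value on both arrays (21.6%). The median difference over the 7519 genes was 0.00 and the mean was -0.07, with a standard deviation over genes of 0.29. The 5th percentile was -0.63 and the 95th was 0.34, so the distribution has its longer tail on the low side. Differences throughout are log2 signal with Met-ENK minus log2 signal in the control, and a 1.5-fold difference is 0.58 on this scale. Where a gene is given with a pair of log2 signals, the control comes first and Met-ENK last, with β-END(1-9) between them where 3 signals are given. The share of called genes that were lower, 89.7%, was 78.8% when the arrays were quantile-normalized anew and 58.6% when all named genes were counted without the filter.

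Control probe sets of the array were not all alike on the 2 arrays. The 399 probe sets named as positive controls had a median difference of -0.23, and 110 of them were at least 1.5-fold lower against 22 higher. For the 1153 named as negative controls the median was 0.09, with 221 lower and 275 higher by at least 1.5-fold, and the 63 ERCC spikes had a median of 0.00. Of the spikes added before labelling, dap read 9.10 in control cells and 9.38 after Met-ENK, and thr 7.74 and 8.06, whereas lys, phe and the 4 hybridization spikes differed by less than 0.05. Of 21 housekeeping genes 15 were lower, 3 of them past 1.5-fold, and the median was -0.20. Hprt1 differed by -0.68, Pgk1 by -0.44 and Ppia by -0.30. Of the others 3 were higher, among them Rab7a (0.47) and Tfrc (0.44), and 3 were equal, among them Actb. The housekeeping list shares members with lists described below, among them Rpl13a, Rplp0, Sdha, Psmb2 and Psmb4. The part of these shifts in the gene differences was not tested.

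**Figure D1:**
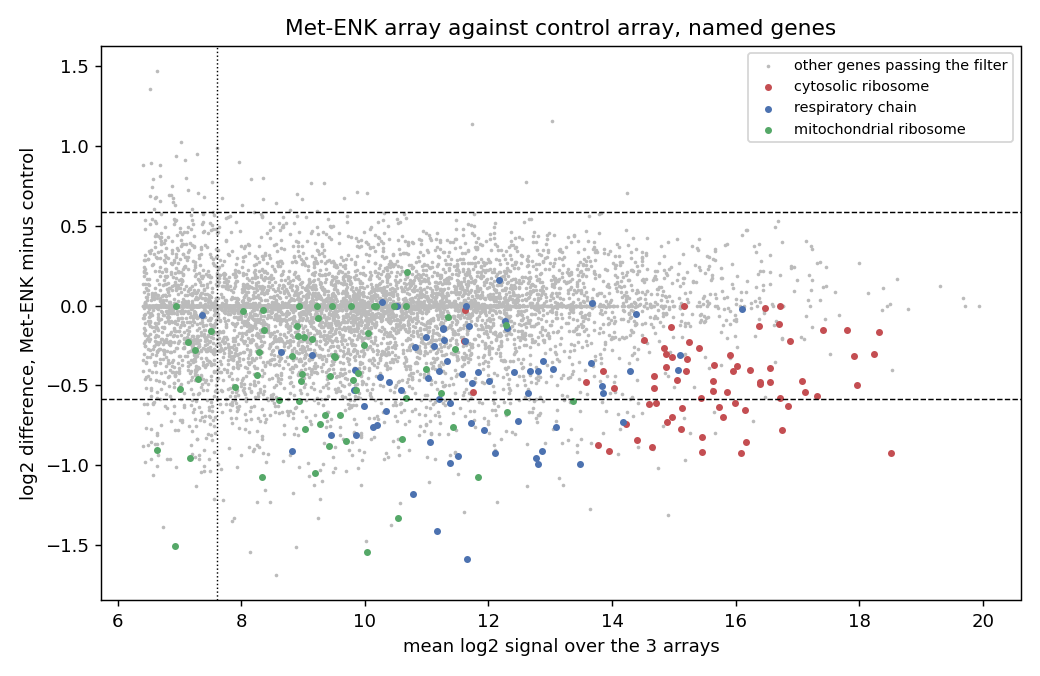
Each point is 1 of the 7519 genes, with its mean log2 signal over the 3 arrays on the horizontal axis and its log2 difference, Met-ENK minus control, on the vertical axis. Dashed lines mark 1.5-fold and the dotted line marks the background limit of 7.6. The points of the cytosolic ribosome, the respiratory chain and the mitochondrial ribosome lie mostly beneath 0, with 67 of them among the 453 genes past the lower line.

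Genes for proteins of the cytosolic ribosome were lower together on the Met-ENK array. Of 70 measured genes, 69 were lower and 1, Rps26, had the same value (16.76) on both arrays. At least 1.5-fold lower were 22 of them (31.4%, beside 6.02% of all genes passing the filter), and the list median was -0.48 beside 0.00 for all. In bulk RNA such as this, fewer cells of a type and less RNA per cell cannot be told apart. The short windows that follow are shown because many ribosomal protein mRNAs begin with a run of pyrimidines, the terminal oligopyrimidine tract through which their translation is regulated. The windows span 60 bases, from 30 before to 30 after the annotated start, and come from RefSeq on assembly GRCr8. Capitals mark the longest run of C and T between 10 bases before and 20 after the start, if it holds at least 8 bases. Rpl36 has no such run in that range, although a run of 8 lies farther before its start.
Rpl19, chr10:83519034-83519093, plus strand: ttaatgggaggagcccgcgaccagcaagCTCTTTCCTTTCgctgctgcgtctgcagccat
Rpl28, chr1:78083503-78083562, minus strand: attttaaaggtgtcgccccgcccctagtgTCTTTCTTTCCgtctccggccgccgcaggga
Rpl13, chr19:68062484-68062543, plus strand: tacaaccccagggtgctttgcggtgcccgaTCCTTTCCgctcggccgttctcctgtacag
Rps15, chr7:10068086-10068145, minus strand: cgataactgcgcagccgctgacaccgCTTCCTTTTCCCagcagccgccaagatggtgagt
Rpl36, chr9:1533750-1533809, plus strand, without such a run: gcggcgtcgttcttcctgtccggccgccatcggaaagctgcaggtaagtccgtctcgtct

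A run of at least 8 pyrimidines between 10 bases before and 20 after the start was found in 38 of the 60 ribosomal protein genes with a promoter entry (63.3%). The same was found in 9.51% of the 6372 genes passing the filter that had an entry, in 12.8% of the 398 such genes that were at least 1.5-fold lower, and in 10.6% of 27457 genes of the whole table. Ribosomal protein genes with the run had a median difference of -0.47 and 13 of 38 were at least 1.5-fold lower. Those without had a median of -0.50 and 6 of 22 were lower by this much. Among the other genes passing the filter, 6.69% with a run and 5.94% without were at least 1.5-fold lower. The run was read on the gene's own strand, and a match describes letters at an annotated start, which can differ from the start used in these cells.

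The 42 genes of the large subunit were all lower, 16 of them past 1.5-fold, and their median was -0.53. Rpl19, whose window is shown above, read 16.48 in control cells and 15.56 after Met-ENK. Rpl28 differed by -0.92, Rpl13 read 14.43 and 13.52, and Rpl36, which has no run in the range searched, 15.05 and 14.16. The smallest difference in this subunit was that of Rpl5 (16.47 and 16.46), which carries the 5S ribosomal RNA into the subunit. On the array with β-END(1-9), read against the same control array, the 42 genes had a median of -0.17 and 0 were 1.5-fold lower.

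In the small subunit, 27 of 28 genes were lower, 6 of them past 1.5-fold, and the median was -0.40. Rps29 had 18.97 in control cells and 18.05 after Met-ENK, a difference of -0.92. Rps15, at the head of the small subunit, differed by -0.87, Rps13 by -0.77 and Rps4x by -0.65. Rps3 lay within 0.01 of the control. Ribosomal proteins have many processed pseudogenes, and the sources used here do not give how the array's probes treat such copies, so each single value here is uncertain.

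Genes that act on the ribosome had list medians near that of all genes. The share at least 1.5-fold lower was above the 6.02% of genes passing the filter for translation factors and ribosome biogenesis, and 0% for aminoacyl-tRNA synthetases. Of 41 translation initiation and elongation factors, 23 were lower and 13 higher, 6 were at least 1.5-fold lower (14.6%), and the median was -0.05. Eif3m, a subunit of the initiation factor eIF3, read 15.19 and 14.17, and Eef1b2, which recharges elongation factor 1A with GTP, read 15.43 and 14.65. Tpt1, another mRNA with a terminal pyrimidine tract, differed by -0.71, and Eif4ebp1, the inhibitor of cap-dependent initiation that mTOR controls, by -0.63. The elongation factors Eef1a1 (19.71 on both arrays) and Eef2 (18.50 on both) had the control's values to within 0.01, and their mRNAs are known to carry the same kind of tract. The value of Eef1a1 lies near the highest gene signal of the control array, that of Actb, which read 19.93 on all 3 arrays. None of the 22 aminoacyl-tRNA synthetase genes was past 1.5-fold in either direction (median -0.06). Among 37 ribosome biogenesis genes 4 were lower by that much (10.8%), with a median of -0.04, led by Fbl (11.91 and 10.97), which methylates ribosomal RNA, while Npm1 read 16.77 on both and Ncl was higher by 0.24.

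Subunits of the mitochondrial respiratory chain formed the second large group. Of 71 measured genes of complexes I to V, 66 were lower, 3 higher and 2 equal, and 27 (38.0%) were at least 1.5-fold lower, with a median of -0.45. On the β-END(1-9) array, against the same control array, the medians of the single complexes lay between -0.04 and -0.25, and 2 of these genes were 1.5-fold lower there. The list holds nuclear genes, and those of mitochondrial DNA lie outside it.

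Complex I takes electrons from NADH. Of its 31 measured subunits, 28 were lower and 11 passed 1.5-fold, with a median of -0.43. Ndufb5 had 13.13 in control cells and 12.18 after Met-ENK, Ndufb10 had 9.34 and 8.43, Ndufa12 had 11.44 and 10.59, and Ndufs4 had 9.87 and 9.06. The flavoprotein core subunit Ndufv1 read 10.52 on all 3 arrays, and Ndufb11 and Ndufs5 were higher by 0.02. Ndufs7 was lower by 1.12 but lay at background on both arrays.

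Complexes II and III pass the electrons on to cytochrome c. Of 14 measured genes, with that of cytochrome c (Cycs) counted among them, 12 were lower, 5 by at least 1.5-fold, and the median was -0.36. Uqcr11, a small subunit of complex III, read 12.34 in control cells, 11.85 after β-END(1-9) and 10.76 after Met-ENK, a difference of -1.59 that is the largest of the 71 genes. The core protein Uqcrc1 read 11.32, 10.87 and 10.14 in that order. Uqcrq differed by -0.94, and Sdhd, the membrane anchor of succinate dehydrogenase, by -0.76, whereas its flavoprotein Sdha differed by -0.31.

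All 11 measured subunits of complex IV, cytochrome oxidase, were lower, 4 of them past 1.5-fold, and their median was -0.51. The lowest was Cox7a2 (13.95 and 12.95), then Ndufa4 (13.26 and 12.35), Cox6a1 (14.53 and 13.81) and Cox4i1 (12.84 and 12.12). All 15 measured genes of complex V, the ATP synthase, were lower too, 7 of them past 1.5-fold, and their median was -0.55. They include the inhibitor Atp5if1 and Dmac2l, which is 1 of the 7 but lay at background on both arrays (6.73 and 5.87). Within complex V the subunits differed. The epsilon subunit Atp5f1e read 11.86 and 10.45, the stalk subunit Atp5pd 13.26 and 12.26, the delta subunit Atp5f1d 11.71 and 10.72, and the small membrane subunit Atp5mk 12.46 and 11.54. The catalytic head subunits lay within 0.06 of the control, at 14.41 and 14.36 for Atp5f1a and 16.11 and 16.09 for Atp5f1b.

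Factors that assemble the respiratory complexes were lower to a smaller degree. Of 40 measured, 26 were lower and 8 higher, and the median was -0.19. At least 1.5-fold lower were 5 (12.5%, beside 6.02% of genes passing the filter). The median over the members above background on both arrays was -0.06. Examples are Cox20 (-0.95) and Pet100 (-0.90), both for cytochrome oxidase, and on the other side Lyrm7 (0.47), which serves complex III.

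Genes of the mitochondrial ribosome, which translates the few mRNAs of mitochondrial DNA, were lower in both subunits. In the large one 37 of 42 genes were lower, 5 equal and 0 higher, 17 were at least 1.5-fold lower (40.5%), and the median was -0.47. Mrpl53 read 10.75 in control cells, 10.14 after β-END(1-9) and 9.21 after Met-ENK. Mrpl55 read 11.17, 10.59 and 9.84, and Mrpl18 read 9.67, 9.30 and 8.62. Mrpl12, which also binds the mitochondrial RNA polymerase, lay above the background limit in control cells and beneath it after either peptide (7.80, 6.70 and 6.30). In the small subunit 22 of 28 genes were lower, 5 of them past 1.5-fold (17.9%), and their median was -0.20. Mrps7 (8.98 and 7.90) and Aurkaip1 (12.32 and 11.25) were the lowest of these.

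Many promoters of nuclear genes for mitochondrial proteins hold a binding site of the factor YY1 at the start of transcription. The letters ATGGCGG, which contain the core of that site, were searched on both strands over 300 bases (250 before to 50 after the start). They were present in 15 of 64 respiratory chain genes with a promoter entry (23.4%), in 13 of 58 mitochondrial ribosome genes (22.4%) and in 14 of 60 cytosolic ribosomal protein genes (23.3%). Among all genes passing the filter the share was 11.5%, among those at least 1.5-fold lower it was 10.6%, and over the whole table it was 5.22%. The windows of 3 of the 28 mitochondrial genes with these letters are given here, from RefSeq on GRCr8 with the matched letters in capitals. They are examples from the mitochondrial ribosome and complex I, and all 3 genes were at least 1.5-fold lower. The letters can also be the first codons of a protein.
Mrpl53, chr4:117173013-117173072, plus strand: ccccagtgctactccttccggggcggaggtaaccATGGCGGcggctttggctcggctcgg
Ndufs4, chr2:47794885-47794944, minus strand: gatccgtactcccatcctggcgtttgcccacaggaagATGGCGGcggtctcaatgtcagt
Ndufa9, chr4:161374141-161374200, minus strand: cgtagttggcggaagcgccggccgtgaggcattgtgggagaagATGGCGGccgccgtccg

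With Met-ENK, Mrpl53 differed by -1.54, Ndufs4 by -0.81 and Ndufa9 by -0.73. Of the 28 genes with these letters 6 were at least 1.5-fold lower, beside 27 of all 71 respiratory chain genes and 22 of all 70 mitochondrial ribosome genes measured. The totals of 71 and 70 include genes without a promoter entry, which could not be among the 28. All 28 were lower by any amount, beside 66 of 71 and 59 of 70. The ETS-type letters CCGGAAG were present in 31.2% of the respiratory chain genes and 32.8% of the mitochondrial ribosome genes, beside 21.3% of genes passing the filter and 9.22% of the table. For genes at least 1.5-fold lower the share was 26.4% of 398, and for genes at least 1.5-fold higher it was 3 of 40 (7.5%). Neither string of letters contains the other, and a gene can hold both.

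Import of proteins into mitochondria was represented by 35 genes, of which 26 were lower, 7 of them past 1.5-fold, and their median was -0.28. Dnajc19, part of the motor at the inner membrane, read 11.04 and 9.80, Mtx2 of the outer membrane 10.23 and 9.40, and the outer membrane channel Tomm40 11.42 and 10.61. One gene of the same motor went the other way. Grpel1, the nucleotide exchange factor of the matrix chaperone, read 7.97 in control cells, 8.44 after β-END(1-9) and 8.63 after Met-ENK. Enzymes inside the mitochondrion differed little as groups. The tricarboxylic acid cycle list had a median of -0.07 over 23 genes, 2 of them at least 1.5-fold lower (8.7%). Citrate synthase (Cs) read 15.57 and 15.58. Fatty acid oxidation had a median of -0.02 over 26 genes, 2 of them at least 1.5-fold lower (7.69%). In these lists the pyruvate carrier Mpc1 (11.63 and 10.53) and the electron transfer protein Etfa (12.28 and 11.54) were the lowest above background.

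**Figure D2:**
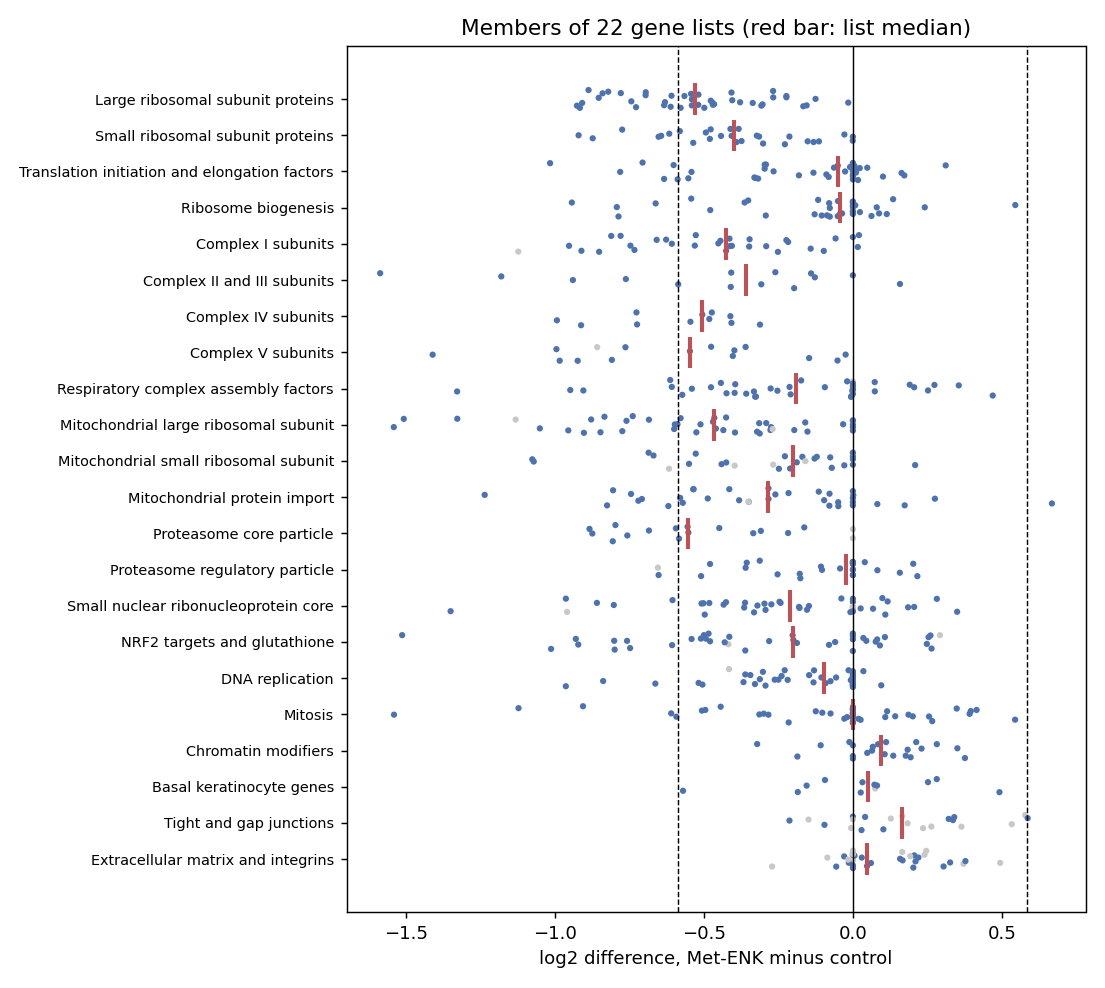
Each point is 1 measured gene of 1 of 22 lists, placed by its log2 difference, Met-ENK minus control. Blue points passed the filter on level, grey points did not, red bars are list medians and dashed lines mark 1.5-fold. The medians of both ribosomes' large subunits, the respiratory complexes and the proteasome core lie between -0.36 and -0.55, and that of the proteasome regulatory particle is -0.02.

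The proteasome degrades ubiquitin-tagged proteins in a barrel-shaped core that is capped by regulatory particles. Its core and its caps differed on the Met-ENK array. Of 17 measured core genes 15 were lower and 2 equal, 7 were at least 1.5-fold lower (41.2%), and the median was -0.55. The outer ring subunit Psma7 read 14.75 and 13.87 and Psma2 read 12.37 and 11.58. Of the inner ring, Psmb4 read 13.77 and 12.90 and Psmb1 differed by -0.81. The 7 standard inner ring genes had a median of -0.59 and the 7 outer ring genes one of -0.45, while the 3 subunits of the immunoproteasome (Psmb8, Psmb9 and Psmb10) were at background. The list of the regulatory particle also holds the separate activators Psme1 to Psme4 and Pomp, a factor that assembles the core. Of its 26 genes 13 were lower, 5 higher and 8 equal, 2 were 1.5-fold lower (7.69%), and the median was -0.02. Of these 2, Psmd10 was at background on both arrays (5.99 and 5.33). Over the members whose values differed between the arrays the median of this list was -0.18, beside -0.58 for the core. Its 6 ATPases had a median of -0.28, led by Psmc5 (12.36 and 11.71). Its 15 non-ATPase genes, among them the assembly chaperones Psmd5, Psmd9 and Psmd10, had one of 0.00. The difference between core and cap was not tested, since the genes of a complex are not replicates.

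The COP9 signalosome, which removes NEDD8 from cullin ubiquitin ligases, had 9 of 10 genes lower and a median of -0.24. Its small subunit Cops9 read 10.82 in control cells, 9.92 after β-END(1-9) and 9.34 after Met-ENK, and its catalytic subunit Cops5 read 12.15, 12.02 and 11.54. Among 35 heat shock proteins and chaperones 26 were lower, with a median of -0.16. At least 1.5-fold lower were 2 of the 35 (5.71%, beside 6.02% of genes passing the filter). The 8 genes of the TCP1 ring, which folds actin and tubulin, were all lower with a median of -0.20, and the 4 prefoldin genes, which deliver these substrates, were all lower with a median of -0.48. None of the 28 genes of the responses to unfolded protein and to translational stress was past 1.5-fold (median 0.00). Ddit3, a stress-induced death factor, differed by -0.45, Atf6, a stress sensor of the endoplasmic reticulum, by 0.54, and the chaperone Hspa5 by 0.28.

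Entry into the secretory pathway differed by part. Of 44 genes 33 were lower, with a median of -0.13. At least 1.5-fold lower were 4 (9.09%, beside 6.02% of genes passing the filter). All 4 belong to the 21 genes of the translocon, signal peptidase and oligosaccharyltransferase (median -0.20), among them Sec61b of the translocon (14.24 and 12.97), Dad1 of the oligosaccharyltransferase (12.07 and 10.78) and Ssr4 (-0.70). The 17 genes of the COPI and COPII coats had a median of -0.02 and 0 past 1.5-fold.

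Genes of RNA production and processing differed by component. Of 42 small nuclear ribonucleoprotein genes 27 were lower, and the list median was -0.21. At least 1.5-fold lower were 6 of the 42 (14.3%, beside 6.02% of genes passing the filter). The 15 genes of the Sm and LSm rings had a median of -0.30 and included Snrpd2 (13.26 and 12.40) and Lsm2 (11.76 and 10.96). The 15 SF3 and PRPF genes of the same machinery had a median of 0.00 and 0 past 1.5-fold. Gemin8, part of the complex that loads the Sm ring, read 8.92 in control cells, 8.14 after β-END(1-9) and 7.69 after Met-ENK. Of 34 RNA polymerase II and general factor genes, 7 were at least 1.5-fold lower (20.6%) with a median of -0.09, among them the TFIID subunit Taf10 (9.94 and 9.06) and the polymerase subunits Polr2c (10.42 and 9.72) and Polr2l (11.52 and 10.85).

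Chromatin modifiers, in contrast, were mostly higher by small amounts. Of 22 genes, 15 were higher, 4 lower and 3 equal, 0 were past 1.5-fold, and the median was 0.10. The corepressor Ncor1 read 14.68 and 15.05, the histone methyltransferase Ash1l 11.91 and 12.26, and Kmt2e 12.61 and 12.90. The demethylase Kdm2a was the exception with the largest lower value (12.15 and 11.83). The median of this list was 0.07 when the trend along genomic span was removed and 0.16 after a new quantile normalization.

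The 20 genes with the most negative differences above background on both arrays ranged from -1.69 to -1.15. Rabac1, a Golgi protein that binds prenylated Rab GTPases, led them with 9.35 in control cells, 8.68 after β-END(1-9) and 7.66 after Met-ENK. Then came Uqcr11, Mrpl53 and Cbr1, a carbonyl reductase (9.58, 9.00 and 8.06). After Cops9 and Atp5f1e followed Psenen, a subunit of γ-secretase (11.10, 10.42 and 9.73), Tmem254 (-1.33) and Mrpl55. Mt2A, a metallothionein that binds zinc and copper, read 15.47, 15.08 and 14.16. Dad1, Sec61b, Dnajc19 and Gemin8 are described above. The remaining 6 were Ppdpf (-1.23), Rpl37l1, a ribosomal protein-like gene (-1.23), the endoplasmic reticulum SNARE Use1 (-1.21), Uqcrc1 (-1.18), the mitochondrial membrane protein Tmem223 (-1.18) and the ubiquitin ligase Stub1, which acts with chaperones (8.79, 8.75 and 7.64). The β-END(1-9) values are read against the same control array, so the 2 comparisons are not independent.

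At the other end, the 20 genes with the most positive differences above background on both arrays ranged from 0.59 to 1.15. Myl2, the regulatory light chain of myosin known from heart and slow muscle, read 12.41 in control cells, 13.12 after β-END(1-9) and 13.56 after Met-ENK. Mfsd6, a membrane protein of the major facilitator family, read 11.31, 11.47 and 12.44, so the β-END(1-9) array lay nearer to the control. These were the 2 genes above background that passed 2-fold. Cgref1 followed with 7.62, 7.75 and 8.52, and the kinesin Kif5c, known as a motor of neurons, with 7.99, 8.30 and 8.78. Mnt, a Max partner that opposes Myc, read 7.64 on the control array and the same 8.43 on both peptide arrays. Ipo7, an importin that carries ribosomal proteins and other cargo into the nucleus, read 12.31, 12.40 and 13.09.

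Igf2bp1, an mRNA-binding protein of growing cells, read 8.90 in control cells, 8.82 after β-END(1-9) and 9.67 after Met-ENK. Rc3h2, a roquin that promotes decay of inflammatory mRNAs, read 13.95, 14.12 and 14.65. Il17ra, the receptor chain through which keratinocytes respond to interleukin 17, read 9.55, 9.79 and 10.26. The rest were Tor1aip2 (0.77), Tmem104 (0.71), the phosphatase Cdc14a (0.70), Pdzd2 (0.67), Grpel1 (0.67), the histone demethylase Kdm4d (0.66), Lipogenin (0.64), Ccdc112 (0.63), Rcc1, the exchange factor of Ran (0.60), the adaptor Efs (0.59) and Marveld3 of tight junctions (0.59). Efs, Marveld3 and Rcc1 were no longer past 1.5-fold when each array was centred on its median.

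**Figure D3:**
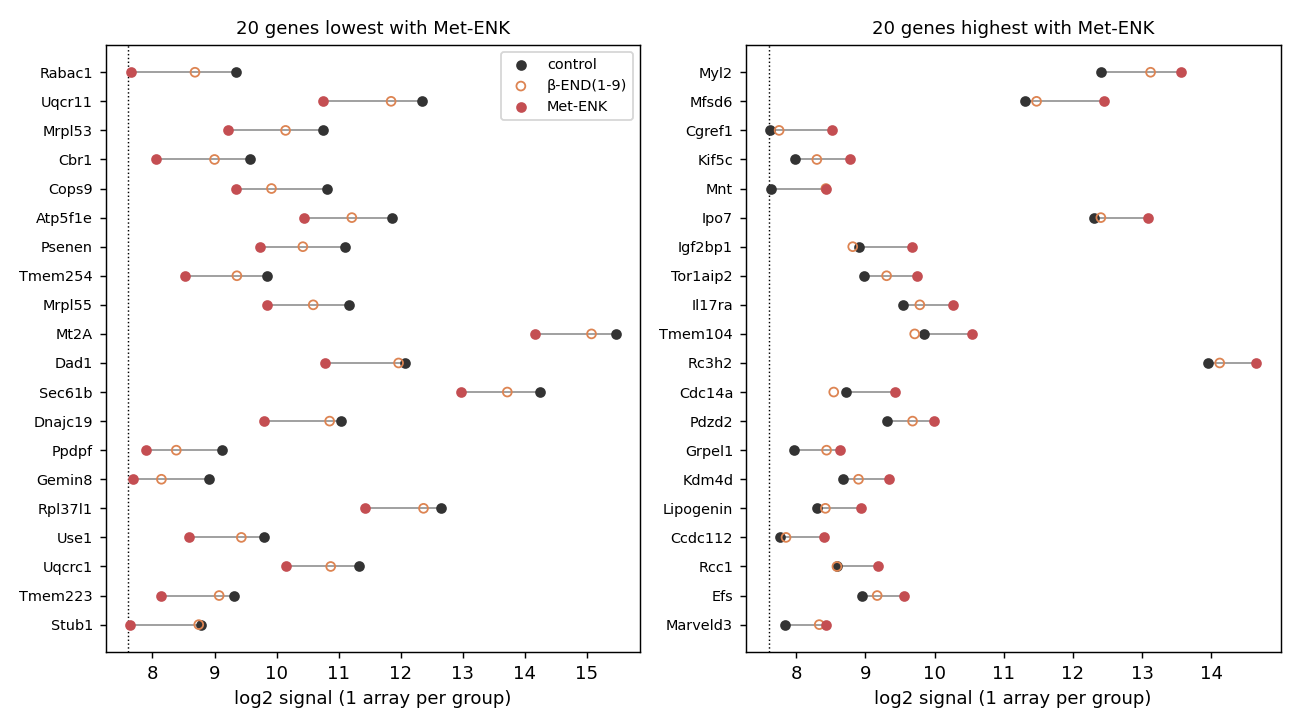
The 20 lowest (left) and 20 highest (right) genes above background on both arrays are shown with their log2 signal on the control array (black), the β-END(1-9) array (open orange) and the Met-ENK array (red), 1 array per group. The dotted line is the background limit of 7.6. In the left panel the gap between control and Met-ENK runs from -1.69 for Rabac1 to -1.15 for Stub1, and in the right panel from 1.15 for Myl2 to 0.59 for Marveld3.

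Genes above background on 1 of the 2 arrays can be read as a level on 1 side only. The 10 lowest were Cdkn3, a phosphatase of cyclin-dependent kinases (8.78 in control cells and 7.24 after Met-ENK), Mrpl12, Zcrb1 of the minor spliceosome (-1.35), the complex I assembly factor Ndufaf5 (-1.33), the kinase inhibitor Cdkn2d (8.08 and 6.86), Plgrkt (-1.21), Birc3 (-1.13), Cyp4v3 (-1.04), Nipal2 (-1.04) and Camsap3 (-1.03). The 10 highest were Trem3 (7.19 and 8.18), Pitpnm2 (0.95), Mpped2 (0.78), Zc4h2 (0.68), Syt12 (0.68), Krt76, a suprabasal keratin (0.59), the cAMP phosphodiesterase Pde4a (0.57), the channel Trpc1 (0.57), Cd300lf (0.56) and Cchcr1 (0.55). For Krt76, Trpc1 and Cchcr1 the 2 peptide arrays held the same value.

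Genes of the opioid system itself that lay above background differed little, with 1 exception. None of 8 measured receptor genes was past 1.5-fold, and the 3 above background were nearly level. Ogfr, the opioid growth factor receptor, read 9.67 on both arrays, its paralog Ogfrl1 10.72 and 10.68 and the scavenger receptor Ackr3 9.16 and 9.28. The other receptor genes were at background on both arrays. They include Oprm1 of the µ receptor (2.63 and 2.73), Oprd1 of the δ receptor (5.70 and 6.15), Oprk1 (3.70 on both) and Oprl1 (4.07 and 4.55). Of 11 precursor and processing genes, 1 was at least 1.5-fold lower. That gene was Penk, the proenkephalin gene that encodes Met-ENK, with 10.05 in control cells, 9.49 after β-END(1-9) and 9.24 after Met-ENK. The other precursor genes Pomc, Pdyn and Pnoc lay at background. Of the processing enzymes above background, Ctsl, which cleaves proenkephalin in secretory vesicles, read 12.99 and 12.53, the amidating enzyme Pam 11.76 and 12.03, and the convertase Furin 11.01 and 11.24.

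Enkephalins are inactivated by peptidases, of which 15 genes were measured and 9 lay above background. None was past 1.5-fold, and the largest differences above background were those of the aminopeptidase Lnpep (14.30 and 14.52), Dpp3, which removes the first residues of enkephalins (9.51 and 9.37), and Prep (13.51 and 13.62). The genes of neprilysin (Mme) and aminopeptidase N (Anpep), known as the main enkephalin-degrading enzymes at cell surfaces, were at background on both arrays. Downstream of the receptors, 43 G protein and cAMP genes had a median of 0.00, with 1 at least 1.5-fold lower and 1 higher. The lower one was the γ subunit Gng5 (12.56, 12.10 with β-END(1-9), and 11.66), and the higher one was Rgs17, at background on both arrays. Gnb4 differed by -0.48, the stimulatory α subunit Gnas by -0.44 and the protein kinase A subunit Prkar2a by 0.41.

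**Figure D4:**
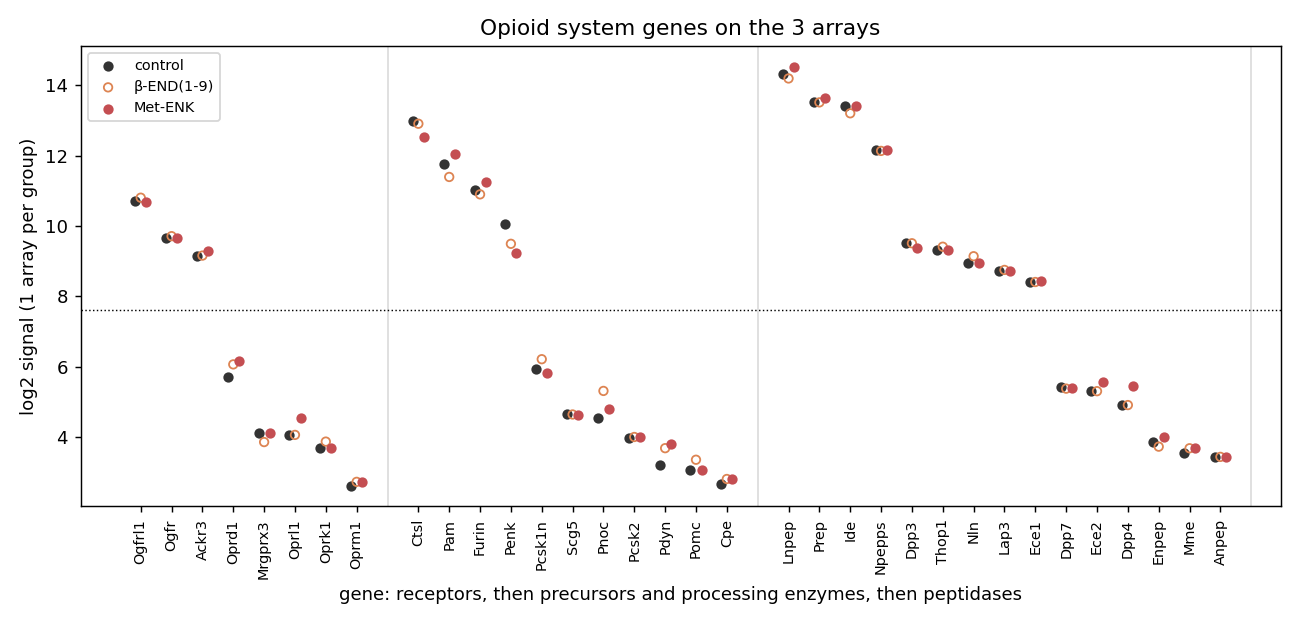
Log2 signals of opioid receptor genes, of precursor and processing genes and of enkephalin-degrading peptidase genes are shown for the control (black), β-END(1-9) (open orange) and Met-ENK (red) arrays, 1 array per group, with the background limit of 7.6 as a dotted line. Penk is the gene above that line with the widest gap, from 10.05 to 9.24.

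The cells carried keratinocyte genes on both arrays. All 8 keratinocyte markers were above background, with 0 past 1.5-fold. Among the basal genes Krt15 read 12.80 and 12.23 and Krt14 16.70 and 16.61, whereas the laminin receptor chain Itga6 read 16.46 and 16.95, the hyaluronan receptor Cd44 16.33 and 16.61 and the laminin chain Lamb3 15.37 and 15.63. Over 12 basal genes 8 were higher, 4 lower and the median was 0.05. Of 25 differentiation genes 5 lay above background on both arrays, with a median of -0.25 over these 5 and 0.00 over all 25. Cst6, an inhibitor of the proteases that act in the cornified layer, read 13.23 in control cells, 12.55 after β-END(1-9) and 12.10 after Met-ENK. At least 1.5-fold higher were 4 of the 25, beside 2.98% of all named genes. These 4 (Krt1, Lce1f, Ivl and Krt76) were at background on at least 1 of the arrays.

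Junction and adhesion genes differed by small amounts. Of 21 tight and gap junction genes 15 were higher and 4 lower, with a median of 0.17, and Marveld3 was past 1.5-fold. Over the 10 of these genes above background on both arrays the median was 0.07. The scaffold Tjp1 read 13.43 and 13.77, the adhesion molecule F11r 12.38 and 12.71 and the claudin Cldn12 9.94 and 10.26. In desmosomes and adherens junctions the median was 0.05 over 19 genes, with Vcl (0.42), Ctnnd1 (0.38) and the desmoglein Dsg3 (0.36) higher and the plakophilin Pkp3 1.5-fold lower (10.24 and 9.65). Of 33 matrix and integrin genes 19 were higher, 6 lower and 0 past 1.5-fold. The cytoskeleton list of 42 genes held 6 that were 1.5-fold lower (14.3%, beside 6.02% of genes passing the filter), with a median of 0.00. Among its members were Stmn1, which binds tubulin (13.86 and 12.94), Tmsb4x, which binds actin monomers (15.05 and 14.15), vimentin (Vim, 14.57 and 13.90) and the actin linker Tln1 (10.78 and 11.19).

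S100 proteins are small calcium-binding proteins of the epidermis. Of 10 measured, 5 were lower, 2 higher and 3 equal, and the list median was -0.03. At least 1.5-fold lower were 3 of the 10, beside 4.21% of all named genes. In the shortest quintile of genomic span, described below, lay 8 of the 10. In that quintile 13.6% of genes passing the filter were lower by this much. S100a16 read 10.53 in control cells and 9.70 after Met-ENK, S100a6 read 16.58 and 15.86, and S100a10 read 15.90 and 15.24. Of 9 annexins, the partners of several S100 proteins, 1 passed 1.5-fold (Anxa3, -0.64). The protease inhibitor Timp1 read 10.57 and 9.96.

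Defence against oxidants was the further list with many lower genes. Of 42 NRF2 target and glutathione genes 25 were lower and 9 were at least 1.5-fold lower (21.4%), with a median of -0.20. Beside Cbr1 these included the peroxidases Prdx2 (14.47 and 13.54) and Gpx4 (11.64 and 10.84), Taldo1 of the pentose phosphate pathway (10.82 and 9.90) and the ferritin light chain Ftl1 (16.06 and 15.26). Keap1, the inhibitor of NRF2, was also lower (9.27 and 8.25), and on the β-END(1-9) array it read 9.30. All 6 peroxiredoxin genes were lower. The rate-limiting glutathione enzyme Gclc and the cystine carrier Slc7a11 were each higher by 0.25, and Nqo1 by 0.09, so the classical NRF2 targets did not go one way. The median of the list was -0.10 when the trend along genomic span was removed and -0.39 over the members whose values differed between the arrays. Glycolysis, cholesterol synthesis, lipid synthesis and the lysosome had list medians of 0.00, with Agpat2 of phosphatidic acid synthesis (11.37 and 10.43), Ggps1 of isoprenoid synthesis (9.44 and 8.64) and the proton pump subunit Atp6v0b (8.91 and 7.99) among their lowest members.

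Cell division genes gave a mixed picture. Of 44 replication genes 27 were lower, 2 higher and 15 equal, and the median was -0.10. At least 1.5-fold lower were 3 (6.82%, beside 6.02% of genes passing the filter). The clamp loader subunit Rfc4 differed by -0.84 and the helicase partner Cdc45 by -0.66, and Mcm2 read 11.84 and 11.60. Among 43 mitosis genes the median was 0.00 and 5 were at least 1.5-fold lower (11.6%). Pttg1, the securin that guards sister chromatids, read 10.52 in control cells, 9.88 after β-END(1-9) and 9.39 after Met-ENK. Ube2s, which extends ubiquitin chains for the anaphase-promoting complex, read 11.12, 10.81 and 10.22. Aurkb differed by -0.61 and Cdk1 by -0.59, while the spindle motor Kif11 differed by 0.54. Cdkn1a, a cyclin-dependent kinase inhibitor named in work on Met-ENK and growth, differed by -0.07, and the inhibitor Cdkn2a by -0.18. Bax, a p53 target that permeabilises mitochondria, differed by -0.62.

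Signalling lists had shares at least 1.5-fold lower between 0% and 5.71%. The lists also count members that failed the filter, and the share over all named genes was 4.21%. In the TGF-β and BMP list 2 of 35 genes (5.71%, beside 6.02% of genes passing the filter) were at least 1.5-fold lower. The BMP-induced inhibitors of differentiation Id2 (10.16 and 9.26) and Id1 (14.19 and 13.53) were lower, and the activin subunit Inhba was higher by 0.53. In the Wnt and Notch list it was 2 of 40 genes (5.0%), and the Notch target Hes1 (10.16 and 9.37) and Wnt4 (8.58 and 7.85) were lower, whereas Notch1 (0.39) and its ligand Jag1 (0.32) were higher. Of 23 ERK feedback genes Spry2 was 1.5-fold lower (10.81 and 10.14) and Dusp16 was higher by 0.50. None of 32 immediate early genes and none of 21 genes of the EGF receptor family was past 1.5-fold. In the interferon list, Ifi27 was the member above background past 1.5-fold (10.34 and 9.52), and the cytokine list had none above background on both arrays.

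Genes at least 1.5-fold lower had a shorter median span than the rest. Genomic span is the length a gene covers on its chromosome in the GRCr8 annotation, and it stands in loosely for the length of the mRNA. Its median was 9.17 kb for the 453 lower genes, 23.7 kb for the 52 higher genes and 22.8 kb for all genes passing the filter. In quintiles of span, from shortest to longest, the share at least 1.5-fold lower was 13.6%, 7.78%, 4.86%, 2.39% and 1.53%. With both ribosomes and the respiratory chain left out, the share in the shortest quintile was 11.2% (152 of 1362 genes). Within that same quintile it was 30.3% for cytosolic ribosomal proteins (20 of 66), 41.5% for respiratory chain subunits (17 of 41) and 42.9% for the mitochondrial ribosome (15 of 35). This quintile runs from 0.081 to 8.05 kb, and spans were not matched within it. The cytosolic ribosomal protein genes have a median span of 3.28 kb. For β-END(1-9), read against the same control array, the shares were 2.53%, 2.46%, 1.86%, 1.93% and 2.59%. Of the 20 lowest genes 17 lay in the 2 shortest quintiles, and of the 20 highest 10 lay in the 2 longest. The part of span, or of the RNA or labelling properties that go with it, in the gene differences was not tested.

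**Figure D5:**
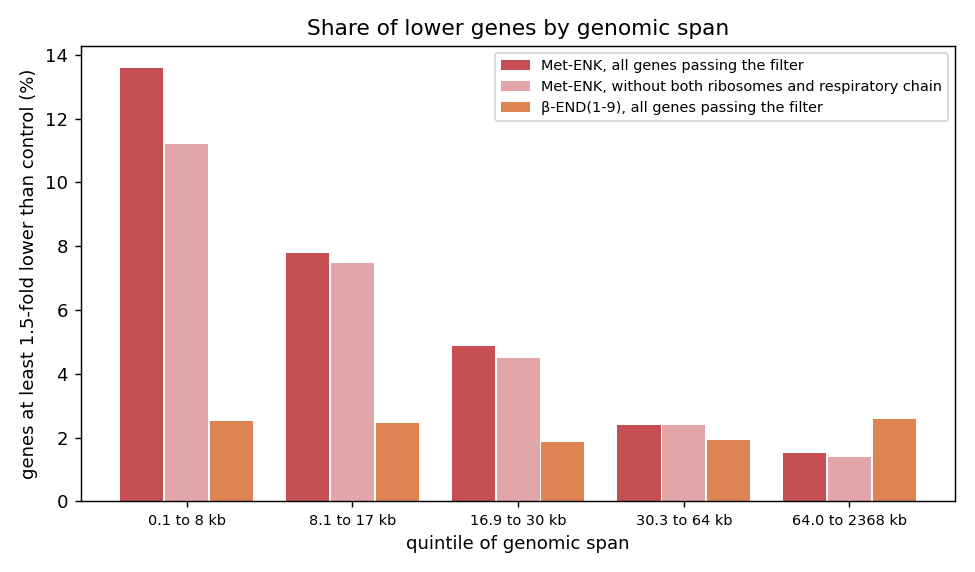
Bars give the percentage of genes lower than in control cells by at least 1.5-fold, in quintiles of genomic span, for Met-ENK over all genes passing the filter (dark red), for Met-ENK without both ribosomes and the respiratory chain (light red) and for β-END(1-9) (orange). The dark red bars run from 13.6% to 1.53%, and the orange bars stay between 1.86% and 2.59%.

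The 3 groups named last made up 67 of the 453 lower genes (14.8%) but 202 of the 7519 genes passing the filter (2.69%). All 62 lists together held 172 of the 453 (38.0%), beside 17.5% of the genes passing the filter, so most of the lower genes belong to no list described here. For the 52 higher genes the share was 9 (17.3%). The β-END(1-9) array, which shares its control array with Met-ENK, had 171 genes at least 1.5-fold lower (2.27%) and 42 higher (0.559%).

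Markers of other cell types were mostly at background on both arrays. Of 12 fibroblast markers 2 were above it (Col1a1 at 8.28 and 8.22, and Col3a1 at 8.53 on both), of 6 melanocyte markers 1 (Mitf), of 14 immune markers 1 (Cd14), of 10 neuron and Schwann cell markers 2 (Map2 and Tubb3, with equal values on both arrays) and of 8 endothelial markers 0. The 11 skeletal and cardiac muscle markers were all at background, among them Des (3.74 and 3.19), Tnnt2 (4.41 on both) and Actc1 (5.22 and 5.45). Taken off the log scale and summed, the signals of these 11 came to 228 in control cells and 256 after Met-ENK, and their part in the Myl2 difference was not tested. Over these lists 1 endothelial marker was 1.5-fold lower and 1 immune and 1 muscle marker were 1.5-fold higher, all 3 at background. Of 43 contractile genes, 16 of which passed the filter, 6 were at least 1.5-fold higher, beside 2.98% of all named genes. On the β-END(1-9) array, against the same control array, 5 of the 43 were higher by as much. Of the 6, Myl2 was above background, while Tnnc1 (5.74 and 7.10), Myog (4.48 and 5.57), Atp2a3 (6.19 and 7.07), Casq2 and Tnni1 were not.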

How the data were processed

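Total RNA of 3 FRSK cultures was labelled with biotin and hybridised to Affymetrix whole-transcript arrays, 1 per group. Each deposited value is the log2 signal of a probe set, made by the authors with Expression Console, Transcriptome Analysis Console and RMA (background correction, quantile normalization and summary of each set's probes) per the submitters' processing notes. The sources used here do not give versions or the genome build. Control probe sets (1646 of 24834) were kept apart. The platform annotation named 15049 of 23188 transcript clusters, and of several probe sets for a gene the one with the highest mean was used (10 genes). Differences, counts and list medians were computed in Python 3.11.15 with pandas 2.3.3 and numpy 2.4.6, and the scripts were tested on simulated data. With 1 array per group no test was possible, and precision is limited by how few arrays there are. The single genes are the 20 most positive and 20 most negative above 7.6 on both arrays, 10 per direction above it on 1 array, the opioid genes, and in each list the 4 members above 7.6 with the largest differences. Other list members named with values were chosen after their values were seen. The members and lists were chosen with earlier results of these data known. Promoter windows (first entry per gene, 12435 named genes) and gene spans came from RefSeq, assembly GRCr8. The motifs searched were chosen after the data were seen. Alternatives were a new quantile normalization, centring on the median, removal of lowess trends along level or span, the mean of a gene's probe sets, other filters and other choices of list members.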

Additional observations from a re-analysis of the deposited data

How the results depend on the processing

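The count of genes at least 1.5-fold lower (453) stayed within 1.5 times its value under each alternative run, from 336 with the trend along genomic span removed to 633 without the filter on level, and was 339 after a new quantile normalization. The count of higher genes (52) did not: it was 91 after quantile normalization, 448 without the filter and 20 with signal above 7.6 required on both arrays. It ranged from 46 to 75 under the other scalings. No list median and no named gene changed sign from a value of at least 0.1. Of 88 medians of lists and their parts, 13 moved by at least 0.1 with the span trend removed and 4 after quantile normalization. With other choices of members, 19 moved when exactly equal members were left out, 7 with signal above 7.6 required and 6 with members passing the filter. Leaving out equal members took the proteasome regulatory particle from -0.02 to -0.18 and the general transcription factors and TAFs from 0.00 to -0.27. With the span trend removed and after quantile normalization, the median of the cytosolic ribosome was -0.35 and -0.36, and that of the respiratory chain was -0.37 and -0.38. Of the 60 single genes, 56 were past 1.5-fold and 52 of these remained so under every scaling and summary, while 18 moved by at least 0.1 with the span trend removed. The cause was not tested. No paired analysis was possible because each group has 1 array. The spread between cultures is unknown, and differences near background or exactly equal values carry little information.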
